A study of Mus musculus with 16 samples.

Results

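The miR-15/16 seed family was represented by 6 mature mouse microRNAs, mmu-miR-15a-5p, mmu-miR-15b-5p, mmu-miR-16-5p, mmu-miR-195a-5p, mmu-miR-322-5p and mmu-miR-503-5p (named without the species prefix in most places here), chosen by name from the 1915 entries of a mature microRNA count table because they share, or nearly share, the seed that pairs with target messages. The table describes extracellular vesicles (EVs), the membrane-bound particles that cells release, taken from the bone marrow plasma of C57BL/6N mice aged 6 months. All mice carried the CAGS-Snorkel allele, which puts an HA tag on EVs of cells that have expressed Cre, and tagged EVs were pulled down with anti-HA beads. The 6 CAGS-Snorkel//Ocn-Cre libraries (Ocn; 3 male and 3 female mice) use a Cre under the osteocalcin promoter, a promoter of late osteoblasts and osteocytes, and the 10 CAGS-Snorkel//Prx1-Cre libraries (Prx1; 5 male and 5 female mice) use a Cre of the limb bud mesenchyme, whose descendants include osteoblasts, chondrocytes and marrow stroma. Mice lacking Cre and unselected plasma were not analysed here, so the level of untagged EVs on the beads is unknown.

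MicroRNAs of this family restrain the cell cycle and favour apoptosis, with Bcl2, Ccnd1 and other cyclin genes among their best known targets. miR-15a and miR-16 are known from a locus deleted in chronic lymphocytic leukaemia, miR-195 and miR-497 from muscle and from vessels of bone, and miR-322 with miR-503 from myogenic and mesenchymal differentiation. miR-16 is plentiful in red cells and in plasma, where it is often taken as a reference RNA. Because a microRNA recognises targets mainly through bases 2 to 8, members with 1 seed can compete for the same sites.

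The mature sequences are shown here because they define the family and set how far its members can be told apart by sequencing. They were read from RefSeq (GRCm38.p6, the mm10 assembly), run 5′ to 3′, and carry the seed in capitals. All 6 members were matched by name, as were 1623 of the 1915 entries.
miR-15a-5p: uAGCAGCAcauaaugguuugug
miR-15b-5p: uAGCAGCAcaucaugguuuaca
miR-16-5p: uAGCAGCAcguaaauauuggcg
miR-195a-5p: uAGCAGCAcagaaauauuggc
miR-322-5p: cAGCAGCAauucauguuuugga
miR-503-5p: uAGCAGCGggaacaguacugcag
miR-497a-5p: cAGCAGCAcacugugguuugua

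The seed AGCAGCA was carried by 10 of the 1623 matched entries, 5 of them members. The seed of miR-503-5p, AGCAGCG, differs at its last base (A8G, counted from the 5′ end of miR-15a-5p) and was carried by no other matched entry. Of the 5 further entries with AGCAGCA, only miR-497a-5p, shown last above, had any count. miR-195b, miR-6342, miR-6353 and miR-6419 were at 0 in all 16 libraries. Outside the seed the closest pair was miR-16-5p and miR-195a-5p, which were identical at 19 of 21 aligned bases and differed by G10A and U11G. miR-15a-5p and miR-15b-5p shared 18 of 22 bases, with A12C, G20A, U21C and G22A between them. How the authors' counting treated reads with mismatches is not given in the sources used here, so the low entries of such a pair are less certain than the high ones.

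In mm10 the members come from 4 loci. Mir15a (chr14:61632027-61632110, minus strand) lies in an intron of the noncoding gene Dleu2, and Mir16-1 (chr14:61631880-61631972, minus strand), 54 bp away, overlaps an annotated Dleu2 exon. Mir15b (chr3:69009772-69009835, plus strand) and Mir16-2 (chr3:69009902-69009996, plus strand) lie 66 bp apart in intronic sequence of Smc4, which encodes a condensin subunit. Mir497 (chr11:70234717-70234800, plus strand) and Mir195a (chr11:70235042-70235135, plus strand) are separated by 241 bp, outside other annotated genes. Mir322 (chrX:53054255-53054349, minus strand) and Mir503 (chrX:53053984-53054054, minus strand) are 200 bp apart, also outside other annotated genes, and are followed on the same strand by Mir351, Mir542 and the Mir450 hairpins. Mir16-1 and Mir16-2 yield an identical 5p product, so the entry miR-16-5p sums both loci. Whether a read matching both was counted per read or per locus is not given in the sources used here. If per locus, the level, rank and share of miR-16-5p would be overstated, which was not tested.

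Library totals ran from 582660 to 1536421 for Ocn and from 225273 to 813770 for Prx1, so depth moved with the group. Each library is taken as 1 mouse, since the numbers of mice in the design text equal the numbers of libraries, and no batch is labelled. Which libraries came from male or female mice is not labelled either, so sex was in no model, including for the X-linked members. Levels are counts scaled to the library total (CPM), and as the microRNAs are of similar length no correction for length was made. Adapter ligation favours some sequences, so an order of levels between members describes these libraries and not molecule numbers. In bulk EV RNA, fewer EVs of a kind and less of a microRNA per EV cannot be told apart. Ocn 3 was the highest of the 6 Ocn libraries for 5 of 5 erythroid, 3 of 3 leukocyte, 3 of 5 mesenchymal and 1 of 2 endothelial markers, and for 0 of 4 muscle markers. It was also the lowest Ocn library for 2 of 5 mesenchymal, 1 of 2 endothelial and 2 of 4 muscle markers. Prx1 5 held 1644 CPM of the liver microRNA miR-122-5p, against at most 23.5 CPM in Ocn.

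As counted, with the handling of reads from both its loci unknown, miR-16-5p made up nearly the whole family and was the most abundant entry. It ranked first in 10 of 16 libraries and never below 3. In Ocn its level had a minimum of 124048, a median of 130080 and a maximum of 167189 CPM. In Prx1 the minimum was 101350, the median 140571 and the maximum 151220 CPM. The ranges overlapped broadly, with the lowest value in Prx1 7 and the highest in Ocn 2. The 6 members summed to 14.0% ± 1.6 of counts in Ocn (SD, n = 6) against 13.8% ± 1.7 in Prx1 (SD, n = 10), of which miR-16-5p was 97.6% ± 0.2 and 97.5% ± 0.5. Between libraries miR-16-5p was also steady, with a coefficient of variation of 11.6% in Ocn and 12.3% in Prx1.

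The 5 remaining members together had 3381 ± 251 CPM in Ocn (SD, n = 6) against 3459 ± 758 CPM in Prx1 (SD, n = 10). By mean CPM over all libraries the order was miR-16-5p (135486), miR-15b-5p (1749), miR-195a-5p (729), miR-322-5p (437), miR-15a-5p (429) and miR-503-5p (86.1). The first 3 steps of this order and the last held within each of 16 libraries. miR-322-5p and miR-15a-5p were not separable, as miR-322-5p was higher in 11 of 16 libraries, 3 of 6 Ocn and 8 of 10 Prx1. As counted, miR-16-5p exceeded miR-503-5p by 1006-fold to 4163-fold. The plot of CPM by library shows these tiers.

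**Figure D1:**
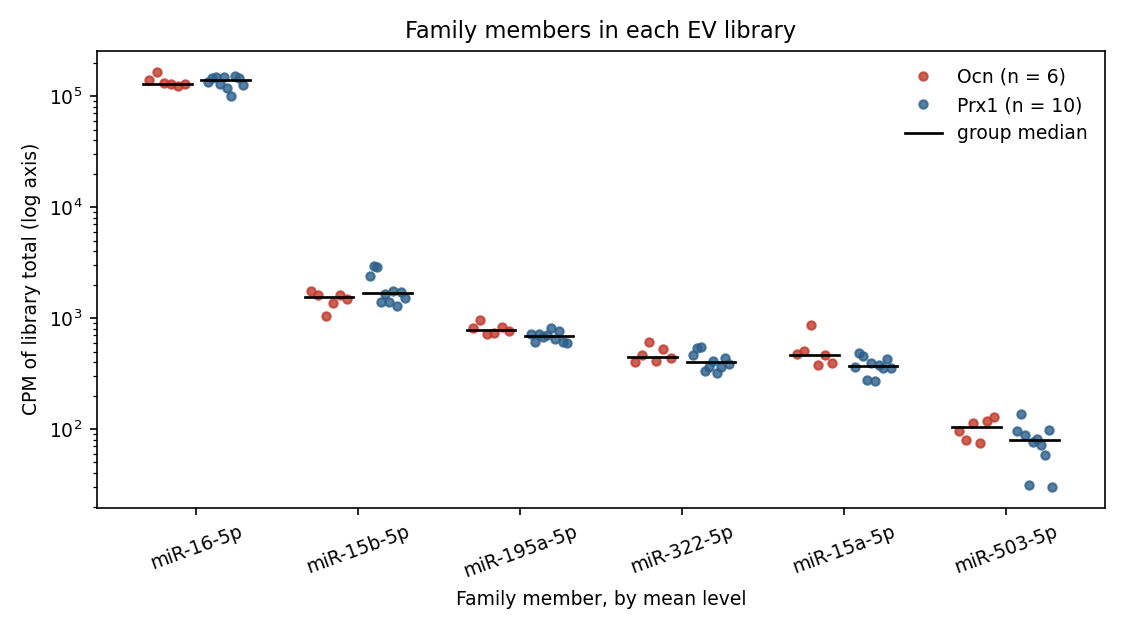
CPM of the library total (log axis) of the 6 family members in 6 Ocn and 10 Prx1 libraries, 1 point per library, with the group median as a line. miR-16-5p lies between 101350 and 167189 CPM, and the ranges of the groups overlap for every member.

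The comparison of the Cre drivers asked whether the family differed between EVs tagged through osteocalcin-expressing cells and those tagged through the limb mesenchyme lineage. None of the 6 members passed the threshold of 0.05 in edgeR's quasi-likelihood test, with p adjusted over all 234 entries tested. Of those entries 13.7% passed, 5.98% higher and 7.69% lower in Ocn, a share from which 0 of 6 cannot be told apart. DESeq2, limma voom and an exact permutation test over all entries also called 0 of 6, beside 42, 48 and 23 of the 234 entries. At an unadjusted p under 0.05 there were 2 of 6 with edgeR, 2 with DESeq2, 1 with voom and 2 with the permutation test, against 26.5% of entries with edgeR. The members differed by test: miR-15a-5p and miR-15b-5p with edgeR and DESeq2, miR-195a-5p with voom, and miR-15a-5p and miR-195a-5p with the permutation test. Of the members, 4 had a log2 fold change above 0, with a median of 0.17 over the 6 beside 0.01 over all tested entries. No member had library ranges that were separate between groups, a property of 3.85% of tested entries. Over all entries the calls split into 14 higher and 18 lower in Ocn, a split that became 26 and 11 under upper quartile scaling, which called 15.8% of entries and shifted the median log2 fold change by 0.12. With log10 of each total in the model, edgeR called 0 of all entries, and 40 at an unadjusted p under 0.05.

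mmu-miR-15a-5p, processed from the Dleu2 transcript, came nearest of the members to the edgeR threshold, with a higher level in Ocn. Its lowest, median and highest values were 380, 469 and 875 CPM for Ocn against 273, 372 and 485 CPM for Prx1. All 6 Ocn libraries lay above the Prx1 mean, and 2 of them, Ocn 3 far ahead of the other, lay above every Prx1 library. The log2 fold change was 0.39 (SE 0.15, 95% interval 0.07 to 0.72, edgeR adjusted p = 0.0883). Without Ocn 3 it was 0.28 (edgeR adjusted p = 0.128), and with limma voom it was 0.24 (adjusted p = 0.181). It passed the threshold without Ocn 5 (0.49, edgeR adjusted p = 0.0384), Ocn 6 (0.51, edgeR adjusted p = 0.0216), Prx1 8 (0.46, edgeR adjusted p = 0.0415) or Prx1 9 (0.45, edgeR adjusted p = 0.0485), and under upper quartile scaling (0.52, edgeR adjusted p = 0.00973). Relative to the median of all entries it stood at 0.38 under TMM (edgeR's trimmed-mean scaling) and at 0.38 under upper quartile scaling.

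mmu-miR-15b-5p, its near twin from the Smc4 intron, had the opposite sign. Its lowest, median and highest values were 1047, 1558 and 1770 CPM for Ocn against 1289, 1696 and 2969 CPM for Prx1. The upper end of Prx1 was made by 3 libraries, Prx1 1 (2417 CPM), Prx1 2 (2969 CPM) and Prx1 3 (2874 CPM), while the other 7 lay within the span of Ocn. Ocn 3, the highest Ocn library for miR-15a-5p, was the lowest for miR-15b-5p. The log2 fold change was -0.38 (SE 0.18, 95% interval -0.77 to 0.01, edgeR unadjusted p = 0.0488, adjusted p = 0.182), and without Ocn 3 it was -0.21 (edgeR adjusted p = 0.421). It was -0.22 under upper quartile scaling (edgeR adjusted p = 0.411) and -0.23 with limma voom (adjusted p = 0.322). The log2 ratio of miR-15a-5p to miR-15b-5p, a pair set side by side after their values were seen and so given without a test, was -1.57 ± 0.65 in Ocn (SD, n = 6) against -2.29 ± 0.29 in Prx1 (SD, n = 10). In Ocn 3 this ratio was -0.26, and 4 of 6 Ocn libraries, Ocn 3 among them, lay above the highest Prx1 value of -1.86.

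mmu-miR-16-5p showed the smallest difference of the 6. Its log2 fold change was -0.01 (SE 0.10, 95% interval -0.23 to 0.21, edgeR adjusted p = 0.936). In the main model this interval leaves out changes beyond about 0.23 in size, a bound that does not carry over to other settings. The sign was not stable across scalings, at 0.02 with library totals and 0.12 (SE 0.12) with upper quartile scaling. With log10 of each total in the model the value was -0.12 (SE 0.16).

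mmu-miR-195a-5p, known from muscle and from bone vessels, had 712, 789 and 958 CPM for Ocn against 601, 687 and 813 CPM for Prx1 as its lowest, median and highest values. All 6 Ocn libraries lay above the Prx1 mean, and 6 of 10 Prx1 libraries lay below the lowest Ocn library. The log2 fold change of 0.19 (SE 0.11, 95% interval -0.04 to 0.43) did not pass (edgeR adjusted p = 0.236). It was 0.30 without Ocn 3 (edgeR adjusted p = 0.0706) and 0.32 under upper quartile scaling (edgeR adjusted p = 0.0859). With limma voom it was 0.24 (adjusted p = 0.0747), and with the exact permutation test it was 0.23 (adjusted p = 0.0745). In these 2 tests miR-195a-5p came nearer to the threshold than miR-15a-5p (voom adjusted p = 0.181, permutation adjusted p = 0.125). The spread of miR-195a-5p between libraries was the lowest of the 6 members, with a coefficient of variation of 10.9% in Ocn and 10.3% in Prx1. Its log2 ratio to the near-identical but far more abundant miR-16-5p was -7.41 ± 0.10 in Ocn (SD, n = 6) against -7.61 ± 0.24 in Prx1 (SD, n = 10). Whether reads of miR-16-5p with sequencing errors entered the entry was not tested.

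The cluster neighbour and seed mate of miR-195a-5p, miR-497a-5p, had 259 ± 62 CPM in Ocn (SD, n = 6) against 230 ± 31 CPM in Prx1 (SD, n = 10). Its log2 fold change was 0.12 (SE 0.13, edgeR adjusted p = 0.640). miR-195a-5p was on average 3.04 times as abundant as miR-497a-5p over the 16 libraries, and their log2 ratio had an SD of 0.31.

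The X-linked pair also lay above 0 without passing. mmu-miR-322-5p, the mouse form of human miR-424, had 405, 448 and 606 CPM for Ocn against 323, 398 and 549 CPM for Prx1 as its lowest, median and highest values. All 6 Ocn libraries exceeded the Prx1 median, and Ocn 3 alone exceeded every Prx1 library. Its log2 fold change was 0.15 (SE 0.13, 95% interval -0.12 to 0.42, edgeR adjusted p = 0.488). Without Ocn 1 it was 0.22 and without Ocn 6 it was 0.23 (edgeR adjusted p = 0.246 and 0.239). It was 0.27 under upper quartile scaling, 0.22 with no low-count filter and 0.07 with the replicate number as a block (edgeR adjusted p = 0.0922, 0.474 and 0.789). mmu-miR-503-5p, the member with the changed seed, had 74.2, 104 and 128 CPM for Ocn against 30.1, 79.3 and 137 CPM for Prx1. The log2 fold change of miR-503-5p was 0.35 (SE 0.23, 95% interval -0.15 to 0.84, edgeR adjusted p = 0.334). This member was the shallowest: Prx1 4 held 7 counts (31.1 CPM, 95% Wilson interval 15.1 to 64.1) and Prx1 10 held 11 counts (30.1 CPM, 95% Wilson interval 16.8 to 53.8), and these intervals cover counting error only.

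**Figure D2:**
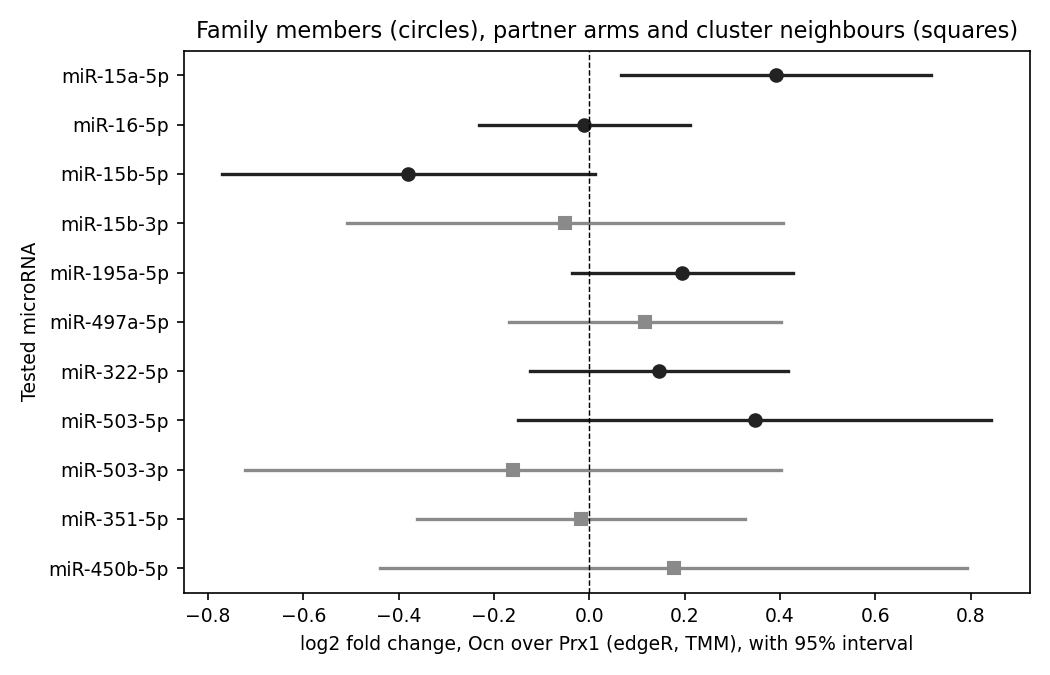
Log2 fold change of Ocn over Prx1 with its 95% interval for the 6 members (circles) and the 5 tested partner arms and cluster neighbours (squares). Only the interval of miR-15a-5p, from 0.07 to 0.72, leaves out 0, with no adjustment for the 234 entries tested.

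The opposite arms of the hairpins were scarce. Of 7 partner arms, 2 passed the count filter, and 0 of them passed the edgeR threshold or an unadjusted p under 0.05. Over all tested entries the shares were 13.7% and 26.5%, from which 0 of 2 cannot be told apart. miR-15b-3p had 69.5 ± 9.8 CPM for Ocn against 71.2 ± 29.2 CPM for Prx1 (SD, n = 6 and 10), with a log2 fold change of -0.05 (SE 0.21, edgeR adjusted p = 0.879). miR-503-3p had 26.7 ± 3.7 CPM for Ocn against 29.5 ± 15.3 CPM for Prx1, with a log2 fold change of -0.16 (SE 0.26, edgeR adjusted p = 0.737). Across both groups the 5p arm was 24.6 times as abundant as the 3p arm for miR-15b but 2.91 times for miR-503 (geometric means of 16 libraries).

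The log2 ratio of 5p to 3p was 4.40 ± 0.29 in Ocn (SD, n = 6) against 4.75 ± 0.51 in Prx1 (SD, n = 10) for miR-15b, a difference of -0.35 (SE 0.23, limma adjusted p = 0.309 over 44 hairpins). For miR-503 it was 1.89 ± 0.34 in Ocn against 1.34 ± 0.65 in Prx1, a difference of 0.55 (SE 0.28, limma adjusted p = 0.245). Neither passed, where 6.82% of the 44 hairpins did. The other 5 partner arms, at 13 to 149 counts over all libraries, were too low for the test.

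The opposite arms are the products that tell the miR-16 loci apart, and they are shown for that reason, in lower case throughout.
miR-16-1-3p: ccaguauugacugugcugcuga
miR-16-2-3p: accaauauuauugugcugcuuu
miR-16-1-3p, from the Dleu2 locus, had 147 counts over the 16 libraries, and miR-16-2-3p, from the Smc4 locus, had 26. The former was higher in 15 of 16 libraries, Prx1 3 being the exception. These counts give no share of miR-16-5p by locus, as whether both arms are kept and ligated alike was not tested. For the 5p arms at these loci the order was the reverse, with miR-15b-5p of the Smc4 locus above miR-15a-5p in each library.

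Ratios between members of a cluster do not depend on library scaling, and 3 were tested by a 2-sided exact permutation test (8008 arrangements) with Benjamini-Hochberg adjustment over the 3. As miR-16-5p sums both its loci, the ratios to it do not compare products of a single cluster alone. The log2 ratio of miR-15a-5p to miR-16-5p was -8.10 ± 0.45 in Ocn (SD, n = 6) against -8.49 ± 0.24 in Prx1 (SD, n = 10), a difference of 0.38 (exact permutation p = 0.0241, adjusted p = 0.0723). All 6 Ocn libraries were above the Prx1 mean. Without Ocn 3 the difference was 0.21 (exact permutation adjusted p = 0.231), and without Prx1 7 it was 0.43 and passed (exact permutation adjusted p = 0.0180).

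The log2 ratio of miR-15b-5p to miR-16-5p was -6.53 ± 0.27 in Ocn (SD, n = 6) against -6.20 ± 0.42 in Prx1 (SD, n = 10), a difference of -0.33 (exact permutation p = 0.109, adjusted p = 0.163). In Prx1, 4 of 10 libraries lay above every Ocn library. That of miR-322-5p to miR-503-5p was 2.23 ± 0.29 in Ocn (SD, n = 6) against 2.52 ± 0.55 in Prx1 (SD, n = 10), a difference of -0.30 (exact permutation p = 0.254, adjusted p = 0.254). The 2 highest Prx1 values of this ratio came from Prx1 10 and Prx1 4, the libraries with 11 and 7 counts of miR-503-5p. The difference was -0.17 without Prx1 10 (exact permutation adjusted p = 0.420) and -0.17 with all libraries thinned to the shallowest (exact permutation adjusted p = 0.562).

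**Figure D3:**
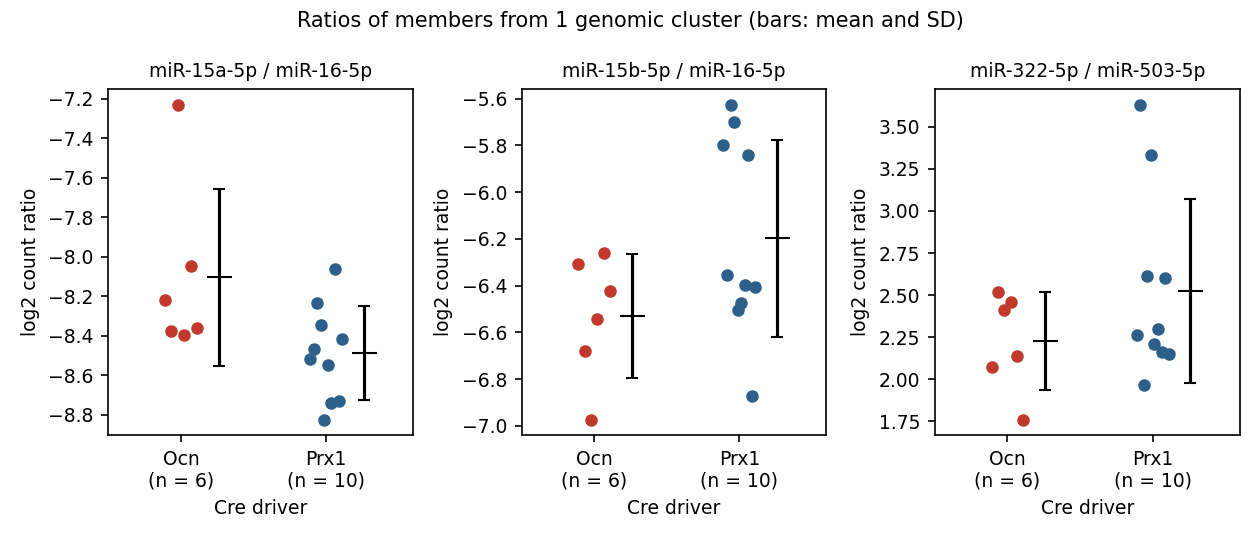
Log2 count ratio of cluster mates (0.5 added to each count) in 6 Ocn and 10 Prx1 libraries, 1 point per library, with the mean and SD beside each group. Ocn 3 is the high point of the miR-15a-5p ratio at -7.23, and the groups overlap in all 3 panels.

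Few neighbours in the clusters could be tested. Of 13 neighbours, 12 had a count in some library and 3 were tested, with 0 called by edgeR and 0 at an unadjusted p under 0.05. Over all tested entries the shares were 13.7% and 26.5%, from which 0 of 3 cannot be told apart. miR-351-5p, encoded 630 bp from Mir503, had 259 ± 19 CPM for Ocn against 255 ± 65 CPM for Prx1 (SD, n = 6 and 10), with a log2 fold change of -0.02 (SE 0.16, edgeR adjusted p = 0.936). miR-450b-5p, from the far end of the cluster, gave a log2 fold change of 0.18 (SE 0.29, edgeR adjusted p = 0.737) at 26.4 ± 15.9 CPM for Ocn against 20.7 ± 7.5 CPM for Prx1. Both arms of miR-542 and the arms of miR-450a stayed below the filter.

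Members of a cluster were compared library by library. Correlations over the 16 libraries used log2 CPM (TMM), 100000 permutations and adjustment over 3 pairs, and CPM values of abundant and scarce entries share a total. miR-322-5p and miR-503-5p rose and fell in the same libraries (Pearson r = 0.67, permutation p = 0.00358, adjusted p = 0.0107; Spearman rho = 0.81, permutation p = 0.00031, adjusted p = 0.00093). Without the 2 libraries farthest from the median of miR-322-5p, Prx1 4 and Prx1 7, r was 0.59 (permutation p = 0.0193). Within groups r was 0.25 in Ocn (n = 6) and 0.68 in Prx1 (n = 10), so r was higher in Prx1, a difference that was not tested.

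miR-15a-5p and miR-16-5p gave r = 0.12 (permutation p = 0.659, adjusted p = 0.659) and rho = 0.28 (permutation p = 0.289, adjusted p = 0.289), with r = 0.43 without Ocn 3 and Prx1 4 and r of -0.20 within Ocn and 0.46 within Prx1. miR-15b-5p and miR-16-5p gave r = 0.30 (permutation p = 0.266, adjusted p = 0.400) and rho = 0.30 (permutation p = 0.264, adjusted p = 0.289), with r = 0.18 without Prx1 2 and Prx1 3 and r of 0.49 within Ocn and 0.25 within Prx1. Neither pair passed.

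Outside the family, the 3 entries most like each member were sought among 228 tested entries by Spearman rho over 16 libraries, as a description with no test. The erythroid microRNAs miR-144-5p and miR-451a led for miR-322-5p, miR-503-5p and miR-15a-5p. The other erythroid entries considered, miR-144-3p, miR-486a-5p and miR-486b-5p, were among the 3 closest entries of no member. miR-144-5p was the closest entry to miR-322-5p (rho = 0.94, with 0.60 within Ocn and 0.95 within Prx1) and to miR-503-5p (rho = 0.76, with -0.09 within Ocn and 0.83 within Prx1). It was second for miR-15a-5p (rho = 0.79), after miR-451a (rho = 0.81, with 1.00 within Ocn and 0.72 within Prx1). Both are encoded at the Mir144/451 locus, a hallmark of red cell precursors.

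miR-15b-5p followed a different set, led by miR-191-5p (rho = 0.85), an abundant microRNA of blood, then by miR-744-5p (rho = 0.81) and the let-7 relative miR-98-5p (rho = 0.79). miR-16-5p was most like let-7i-5p (rho = 0.69), miR-374b-5p (rho = 0.64) and miR-191-5p (rho = 0.57). miR-195a-5p was most like miR-872-5p (rho = 0.77), miR-3473b (rho = 0.71) and miR-3473e (rho = 0.70), the last 2 near-identical entries whose counts are uncertain, and rho was 0.31, 0.09 and 0.09 within Ocn and 0.67, 0.64 and 0.48 within Prx1. All 3 were higher in Ocn, by log2 fold changes of 0.43, 1.71 and 1.61 (edgeR adjusted p = 0.0106, 0.00655 and 0.0106). The remaining places were taken by miR-181c-5p for miR-15a-5p (rho = 0.68), miR-676-5p (rho = 0.77) and miR-21a-5p (rho = 0.74) for miR-322-5p, and miR-1839-5p (rho = 0.70) and miR-21a-5p (rho = 0.67) for miR-503-5p. Between members the closest pair besides miR-322-5p and miR-503-5p was miR-15a-5p with miR-322-5p (rho = 0.67), while miR-15a-5p and miR-15b-5p had a rho of 0.30.

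**Figure D4:**
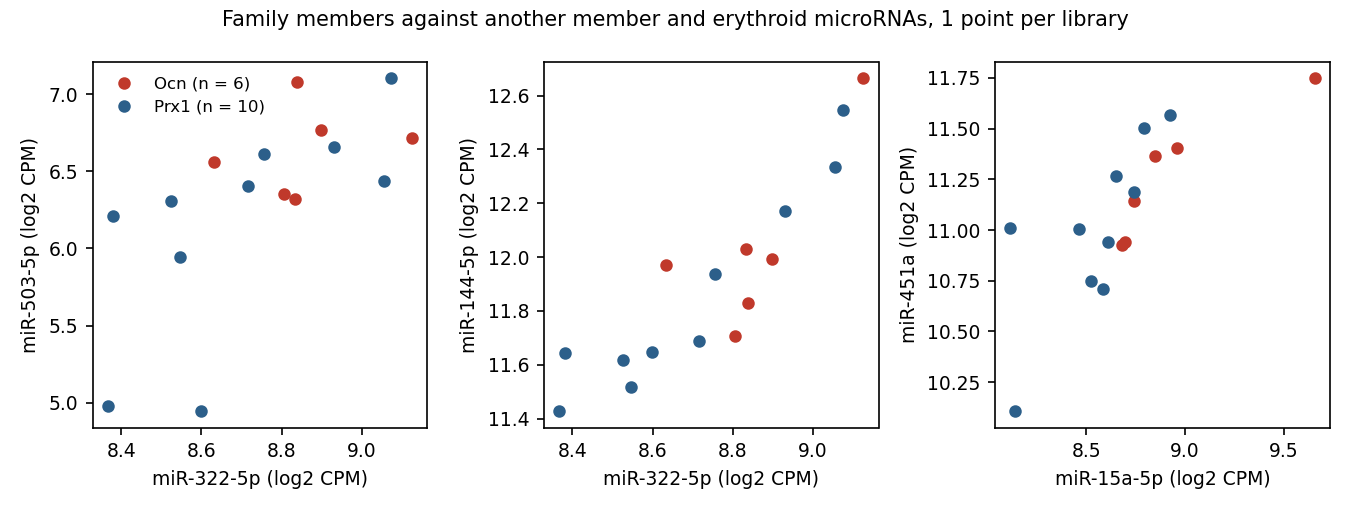
Log2 CPM (TMM) of miR-503-5p against miR-322-5p, of miR-144-5p against miR-322-5p and of miR-451a against miR-15a-5p, 1 point per library for 6 Ocn and 10 Prx1 libraries. Spearman rho over the 16 libraries is 0.81, 0.94 and 0.81 from left to right, and Ocn 3 is the rightmost point of each panel.

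Blood markers are given beside the family. The 5 erythroid entries (miR-451a, miR-144-3p, miR-144-5p, miR-486a-5p and miR-486b-5p) summed to 23947 to 43670 CPM in Ocn and 31874 to 47291 CPM in Prx1. Most of this came from miR-486a-5p and miR-486b-5p, with means of 13100.1 and 12999.5 CPM in Ocn and 16694.8 and 16545.2 CPM in Prx1. Of the 5 entries, 0 rose and 2 fell in Ocn by edgeR, where 13.7% of all entries were called. Those 2 were miR-486a-5p (-0.38, SE 0.13, adjusted p = 0.0451) and miR-486b-5p (-0.38, SE 0.13, adjusted p = 0.0457). They are near-identical entries that may hold the same reads, which was not tested. The sums may therefore repeat reads, and the 2 calls may be the same result. The 3 other erythroid entries had values above 0 and did not pass, at 0.58 (SE 0.20, edgeR adjusted p = 0.0569) for miR-144-3p, where 5 of 6 Ocn libraries lay above the Prx1 mean, 0.22 (SE 0.18, edgeR adjusted p = 0.440) for miR-451a and 0.17 (SE 0.17, edgeR adjusted p = 0.585) for miR-144-5p. The log2 ratio of miR-451a to miR-23a-3p, used in plasma as an index of haemolysis, ran from -0.21 to 1.35 in Ocn, with Ocn 3 highest, and from -0.32 to 0.97 in Prx1. The reference miR-23a-3p itself had a log2 fold change of 0.32 (SE 0.13, edgeR adjusted p = 0.0917), so the ratio depends on both entries. No marker of red cells was at 0 in any library, and the part of red cell RNA in the levels of the family was not tested.

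Markers of other cells moved with the groups in part. The 3 leukocyte entries summed to 39067 to 94359 CPM in Ocn and 42090 to 68987 CPM in Prx1, with 0 of 3 called, and the lymphoid miR-150-5p fell in Ocn, with a fitted log2 change of -1.05 (SE 0.20, adjusted p = 0.00125 by edgeR). Of 5 mesenchymal entries 1 was higher in Ocn, miR-199a-5p (0.43, SE 0.13, edgeR adjusted p = 0.0290), beside 13.7% of all entries called. The other 4 had log2 fold changes of 0.29 for miR-143-3p, 0.11 for miR-199a-3p, -0.19 for miR-145a-5p and -0.29 for miR-214-3p, and the sum of the 5 ran from 31426 to 43032 CPM in Ocn and from 26518 to 34989 CPM in Prx1. Of 4 muscle entries 2 were lower in Ocn, miR-133a-3p (-0.68, edgeR adjusted p = 0.00819) and miR-133b-3p (-0.96, edgeR adjusted p = 0.0101). miR-206-3p (-0.29) and miR-1a-3p (0.34) did not pass, and miR-1a-3p, at a mean of 48287 CPM in Ocn and 37029 in Prx1, made up most of the muscle sum, which ran from 46727 to 77413 CPM in Ocn and from 39885 to 70774 CPM in Prx1. The 2 endothelial entries, neither of them called, summed to 16712 to 20837 CPM in Ocn and 12913 to 19289 CPM in Prx1. Their part in the values of miR-195a-5p, miR-322-5p and the other members was not tested.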

How the data were processed

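MicroRNA libraries were made from 1 ng of RNA with a kit that ligates an adapter to each end, per the labels' protocols. The authors deposited raw counts per mature microRNA, a unit taken from the whole numbers and unequal column totals. cutadapt 1.18 and the build mm10 are listed per the submitters' processing notes. No source used here names the aligner, annotation or counting tool or says whether molecular identifiers were counted. The Wilson intervals take each count as independent and cover counting error only. The intervals of log2 fold changes also include variation between libraries. Groups follow the titles. No label pairs the mice by replicate number, and the main test does not pair them.

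Entries passing filterByExpr (234 of 1915, 973 with a count) were tested with edgeR 4.0.16 in R 4.3.3 (TMM, robust quasi-likelihood F test, group as the only term; SE = size of the log2 fold change divided by the root of F; 95% intervals from a t distribution with the 14 residual degrees of freedom, so wider than the test, which adds degrees of freedom from all entries; threshold 0.05, Benjamini-Hochberg over all entries). Arm ratios used limma 3.58.1 and cluster ratios scipy 1.17.1, with 0.5 added to each count. DESeq2 1.42.0 and further settings served as alternatives. The test was checked on simulated data. Named entries were the members, entries with a member's seed, partner arms, cluster neighbours, the 3 entries most like each member, and cell markers. Members and lists were chosen with earlier results of these data known.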

Additional observations from a re-analysis of the deposited data

Results flagged for a closer look

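In 22 sets of values (6 members, 3 cluster ratios and 2 arm ratios in each group), 3 held a library farther from the others than Dixon's 95% limit for its group size, where chance flags about 1 in 20. All 3 were in Ocn. miR-15a-5p reached 875 CPM in Ocn 3, against 504 CPM in the next library. The log2 ratio of miR-15a-5p to miR-16-5p was -7.23 in Ocn 3, against -8.05 in the next library. miR-16-5p reached 167189 CPM in Ocn 2, against 140085 CPM in the next, just past the limit.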

How the results depend on the processing

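Over 30 alternatives (28 for miR-16-5p), miR-15b-5p, miR-195a-5p, miR-322-5p and miR-503-5p kept their sign and were called in none, with log2 fold changes of -0.48 to -0.21, 0.15 to 0.32, 0.07 to 0.27 and 0.24 to 0.50. miR-15a-5p kept its sign in 30 (0.24 to 0.52; edgeR, DESeq2, voom or permutation adjusted p of 0.00973 to 0.343) and was called in 5, at 0.52 with upper quartile scaling and with 4 single libraries left out. Leaving out each library gave 0.28 to 0.51. The sign of miR-16-5p reversed with the exact permutation test (0.0223), library totals (0.0189), upper quartile scaling (0.12) and no low-count filter (0.0624), and leaving out each library gave -0.0577 to 0.0842, never called. With each library's log10 total in the model 0 entries were called by edgeR in place of 32 (40 at an unadjusted p under 0.05), and miR-15a-5p was 0.42 (edgeR adjusted p = 0.343), so depth limits what can be said of the groups; the cause was not tested. Hairpins called for arm ratio went from 3 of 44 tested to 1 of 31 when 50 counts over both arms were required in every library. They were 3 to 5 with each library left out, 5 without Prx1 4 or Prx1 7. The difference in the ratio of miR-15a-5p to miR-16-5p was 0.21 to 0.44 with each library left out (exact permutation adjusted p of 0.0180 to 0.231). No label pairs the mice by replicate number. Libraries with the same number, 1 to 6, had correlations of deviations from 0.01 to 0.22, and 1 of 6 matched its own number best. These values show no clear pairing, and whether libraries of 1 number shared a preparation was not tested. With the replicate block 27 entries and 4 hairpins were called, miR-15a-5p was 0.39 (edgeR adjusted p = 0.134), and no member was called. Without Prx1 5, the library with miR-122-5p, miR-15a-5p was 0.40 and miR-15b-5p -0.39.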
